A study of Mus musculus with 12 samples.

Results

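The genes of the motile cilium axoneme were followed in whole lung of female mice aged 10 weeks that lacked Zmpste24 or were wild type, with or without mechanical ventilation. Members were taken by name, with no measured value in the rule: every gene whose symbol in the array annotation starts with Dnah, Dnaic, Dnai, Dnaaf, Drc, Rsph, Cfap or Tekt and a number, together with Foxj1, Sntn, Bbof1, Hydin, Spag6, Spag17 and Tppp3. The rule found 73 genes among the 22180 genes measured. The members, and the gene lists set beside them further on, were chosen with earlier results of these data known. Each gene was read from the probe with the highest mean among those paired with that gene alone. Zmpste24 encodes the metalloprotease that processes prelamin A, the precursor of a protein of the nuclear envelope.

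The 4 groups were Zmpste24-/- mice after ventilation, intact Zmpste24-/- mice (baseline), wild type mice after ventilation and intact wild type mice (baseline). Ventilation lasted 2.5 hours at 100 breaths per minute, with a peak pressure set to 15 cmH2O, an end-expiratory pressure of 0 and an inspired oxygen fraction of 0.21. Each group held 3 mice, labelled as biological replicates, and each mouse gave 1 one-colour Affymetrix array. The baseline mice were intact per the labels, so ventilation and the procedures that go with it cannot be told apart.

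Motile cilia of the airway surface beat to move mucus. Their core, the axoneme, is a ring of microtubule doublets around a central pair. Outer and inner dynein arms on the doublets pull neighbouring doublets past each other, and the nexin-dynein regulatory complex, the radial spokes and the central apparatus turn that sliding into a regular beat. Dynein arms are put together in the cytoplasm by assembly factors before they enter the cilium. Tektins and many cilia- and flagella-associated proteins (Cfap) lie in or on the doublets. In the lung these genes are known mainly from multiciliated airway cells, where the forkhead factor Foxj1 and the RFX factors drive them.

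Promoter sequences are shown because many members moved together after ventilation in Zmpste24-/- lungs, as described further on. RefSeq promoters (assembly GRCm38.p6, 250 bases before to 50 after the start) were in the table used for 63 of the 73 members. They were searched on both strands for GTTGCC, a short RFX site, for the full RFX X-box, which joins a pair of such sites in opposite orientation, and for GTAAACA, a forkhead site. An X-box can contain the short site, so these searches overlap. The short site was found in 26 of 63 member genes (41.3%), against 14.1% of all genes with a promoter in the table. The X-box was found in 4 of 63 (6.35%), against 0.529% of all genes, and the forkhead site in 5 of 63 (7.94%), against 4.05%. These matches are letters in the promoter window and say nothing of binding.

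The promoter of Sntn, which encodes sentan of the ciliary tip and had the smallest adjusted p of the members after ventilation, lies at chr14:13670626-13670925 on the plus strand and holds a forkhead site and a short RFX site, both in capitals.
Sntn: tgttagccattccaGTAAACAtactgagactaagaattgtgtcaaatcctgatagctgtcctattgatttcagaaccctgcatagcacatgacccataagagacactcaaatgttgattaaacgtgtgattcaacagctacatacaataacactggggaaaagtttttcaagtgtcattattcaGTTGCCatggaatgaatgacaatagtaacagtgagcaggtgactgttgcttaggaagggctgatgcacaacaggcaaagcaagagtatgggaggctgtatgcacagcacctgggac

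Windows of 60 bases around the short RFX site (capitals, in either orientation) are given for 3 other members that fell after ventilation in Zmpste24-/- lungs, all on the plus strand: Dnaaf4 at chr9:72958769-72958828, Hydin at chr8:110266941-110267000 and Tekt4 at chr17:25471575-25471634.
Dnaaf4: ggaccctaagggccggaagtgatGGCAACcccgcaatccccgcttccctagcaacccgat
Hydin: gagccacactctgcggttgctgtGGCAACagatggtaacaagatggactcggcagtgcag
Tekt4: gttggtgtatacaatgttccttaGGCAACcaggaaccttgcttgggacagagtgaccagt

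The 4 members with a full X-box (capitals) are shown for comparison, since none of them passed the test for ventilation in Zmpste24-/- lungs: Cfap20dc at chr14:8666356-8666415 and Cfap298 at chr16:90935001-90935060 on the minus strand, and Dnaaf6 at chr1:31222757-31222816 and Dnaaf6b at chrX:140062849-140062908 on the plus strand.
Cfap20dc: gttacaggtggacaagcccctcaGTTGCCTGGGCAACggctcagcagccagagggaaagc
Cfap298: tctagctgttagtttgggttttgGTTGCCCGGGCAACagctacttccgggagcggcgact
Dnaaf6: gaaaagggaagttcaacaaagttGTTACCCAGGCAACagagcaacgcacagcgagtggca
Dnaaf6b: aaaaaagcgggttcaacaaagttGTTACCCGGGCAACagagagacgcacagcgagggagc
Of the members that fell in that comparison, 12 of the 24 with a promoter in the table held the short RFX site, and 14 of the other 39 did. The full X-box was in 0 of those 24 and in 4 of those 39, and the forkhead site in 2 and 3.

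The data are deposited log2 values, with array medians between 5.35 and 5.42. Of the 73 members, 61 lay above the median of the array on all 12 arrays, 5 on some and 7 on none. Zmpste24 stood between 5.01 and 5.91 on the 6 Zmpste24-/- arrays and between 8.50 and 9.28 on the 6 wild type arrays, as labelled. Lung markers were present on every array: Sftpc, the surfactant protein of alveolar type 2 cells, lay between 13.02 and 13.25, Ager of type 1 cells between 12.11 and 12.59, and Scgb1a1 of club cells between 13.12 and 13.30. One array stood apart for the members: Zmpste24-/- baseline mouse 1 had the highest value of the 12 arrays in 43 of 73 members. The mean log2 value over the members was 6.55, 6.60 and 6.65 in Zmpste24-/- ventilated mice 1 to 3, 7.14, 6.82 and 6.94 in Zmpste24-/- baseline mice, 6.87, 6.75 and 6.76 in ventilated wild type mice and 6.80, 6.64 and 6.92 in baseline wild type mice. The 3 Zmpste24-/- ventilated arrays thus lay below the 3 Zmpste24-/- baseline arrays, while the ventilated and baseline arrays of wild type mice overlapped.

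**Figure D1:**
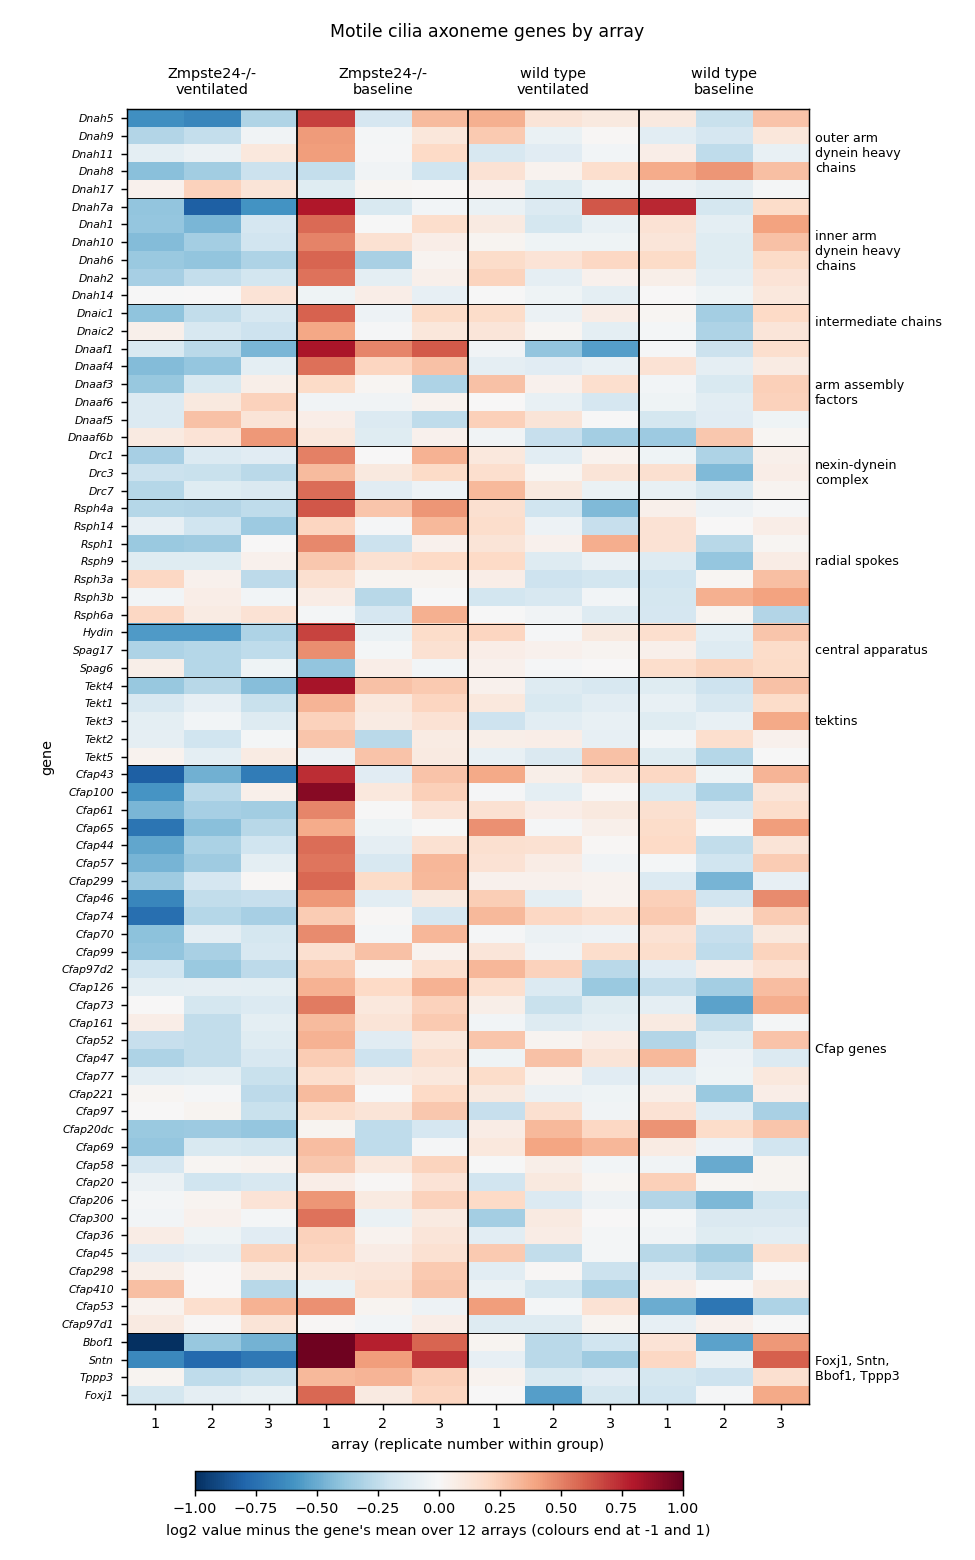
Each row is 1 of the 73 members, ordered by role, and each column 1 of the 12 arrays, ordered by group; colour gives the log2 value minus the gene's mean over the 12 arrays. Most rows are blue in the 3 Zmpste24-/- ventilated arrays, and Zmpste24-/- baseline mouse 1 is the reddest column, with the highest value in 43 of 73 rows.

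Ventilation in Zmpste24-/- lungs was tested first (ventilated minus baseline, limma, Benjamini-Hochberg over all 22180 genes, passed at an adjusted p under 0.05). Axoneme genes fell together in this comparison: 29 of 73 members (39.7%) were lower after ventilation and 0 were higher. Over all genes, 7.52% fell and 8.89% rose. With only genes above the median of mean level, 30 of 58 members (51.7%) fell, against 15.5% of all genes. At an unadjusted p under 0.05, 43 of 73 members were lower and 0 higher, against 3042 and 3025 of all 22180 genes. A trended, robust variance prior gave 28 of 73 members lower and 0 higher. The members' median log2 fold change was -0.34, a 0.79-fold level, against -0.01 over all genes, and 63 of 73 members had a negative fold change. In 45 members all ventilated arrays lay below all baseline arrays and in 1 all lay above, which held for 16.8% and 16.6% of all genes. Of the 61 members above the array median throughout, 28 fell, and of the other 12 only Cfap100 did. In whole lung, fewer ciliated cells and less RNA per ciliated cell cannot be told apart.

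The size of this group depended on single mice. Without Zmpste24-/- baseline mouse 1, the highest array, 14 members (19.2%) fell, beside 5.18% of all genes. The count was 16 (21.9%) without Zmpste24-/- ventilated mouse 1, 18 (24.7%) without ventilated mouse 2 and 19 (26%) without baseline mouse 3. In these fits 6.04%, 5.2% and 5.44% of all genes fell. The count reached 32 (43.8%) without baseline mouse 2, beside 5.99% of all genes. In each of the 12 fits that left out 1 array, no member rose, and 13 of the 29 passed in all 12: Sntn, Bbof1, Dnaaf1, Dnaaf4, Dnah5, Dnah10, Rsph4a, Hydin, Spag17, Tekt4, Cfap43, Cfap61 and Cfap299.

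**Figure D2:**
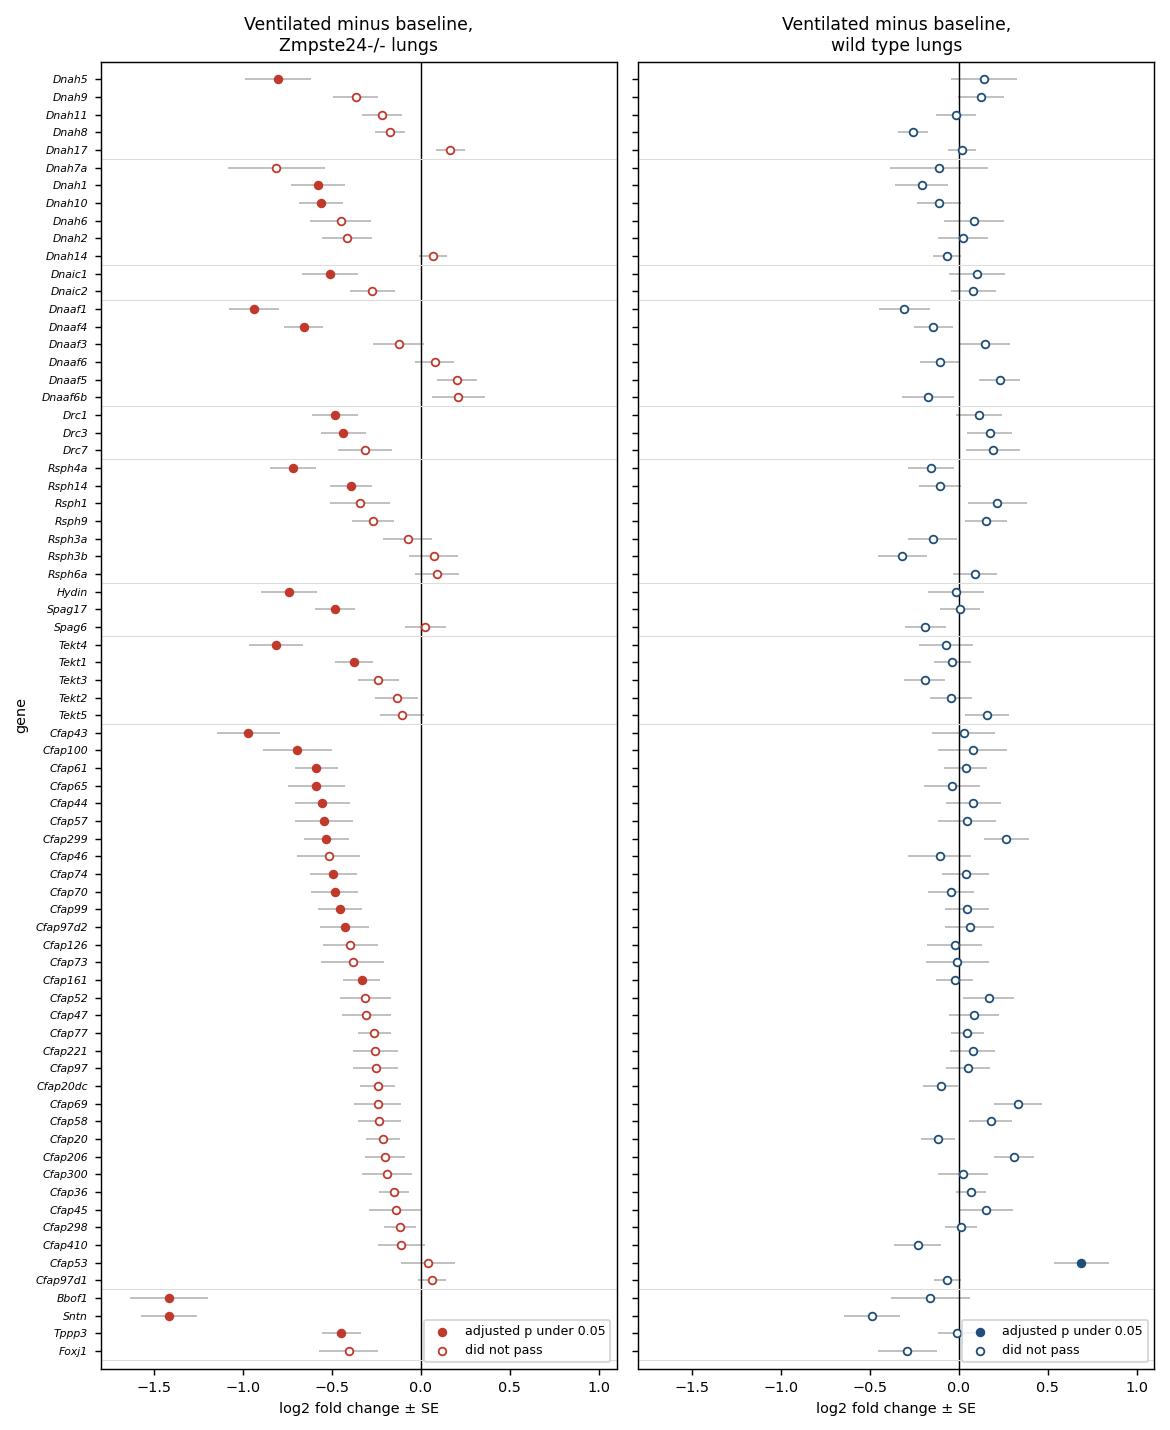
Points give the log2 fold change (ventilated minus baseline) of each of the 73 members with its SE, in Zmpste24-/- lungs on the left and wild type lungs on the right; filled points passed at an adjusted p under 0.05. On the left 29 points are filled, all below 0, and on the right 1 is, Cfap53 at 0.69.

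Among the genes named singly, Sntn and Bbof1 had the largest decreases. Sntn stood at 7.01, 6.88 and 6.94 in Zmpste24-/- ventilated lungs and at 8.63, 8.07 and 8.37 in Zmpste24-/- baseline lungs (log2 values of mice 1 to 3, here and below). The groups lay more than 1 log2 unit apart at their nearest arrays, and the log2 fold change was -1.41 ± 0.16 (SE, adjusted p = 5.33e-05). Bbof1, whose product orients basal bodies in frog multiciliated cells, stood at 6.00, 6.70 and 6.60 in ventilated lungs and 8.05, 7.85 and 7.66 at baseline. Its groups did not overlap either, with ventilated mouse 1 the lowest, and it fell by 1.42 ± 0.22 on the log2 scale (adjusted p = 0.000655). Tppp3, a tubulin polymerisation promoting protein, stood at 10.55, 10.27 and 10.30 in ventilated lungs and 10.85, 10.86 and 10.76 at baseline. It fell by 0.45 ± 0.11 (adjusted p = 0.0122), a call that was lost without ventilated mouse 2 or ventilated mouse 3. Foxj1 itself stood at 8.24, 8.32 and 8.35 in ventilated lungs and 8.99, 8.50 and 8.63 at baseline. Its arrays were separate, but its log2 fold change of -0.41 ± 0.17 did not pass (adjusted p = 0.124).

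Of the 5 outer arm heavy chains, the motor subunits of the outer dynein arm, 1 passed. Dnah5 stood at 7.56, 7.52 and 7.87 in Zmpste24-/- ventilated lungs and 8.86, 8.01 and 8.49 in Zmpste24-/- baseline lungs, with no overlap, and fell by 0.80 ± 0.19 (adjusted p = 0.00897). Dnah9 and Dnah11, its partners in airway cilia, had log2 fold changes of -0.37 and -0.22, and Dnah8 and Dnah17, known from sperm tails, -0.17 and 0.17. None of these 4 passed. Without baseline mouse 2 the count was 2.

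Of the 6 inner arm heavy chains, Dnah10 and Dnah1 fell. Dnah10 stood at 6.56, 6.65 and 6.80 in ventilated lungs and 7.49, 7.14 and 7.06 at baseline, and fell by 0.56 ± 0.12 (adjusted p = 0.00685). Dnah1 stood at 6.28, 6.21 and 6.50 in ventilated lungs and 7.23, 6.66 and 6.84 at baseline, and fell by 0.58 ± 0.15 (adjusted p = 0.018). The arrays of both genes were separate. Dnah7a, at -0.81 ± 0.27 (adjusted p = 0.06), varied more from mouse to mouse, between 3.94 and 4.36 in ventilated and between 4.60 and 5.56 in baseline lungs. Dnah6, Dnah2 and Dnah14 had fold changes of -0.45, -0.42 and 0.07 and did not pass. The count of inner arm heavy chains was 1 without baseline mouse 1, ventilated mouse 1 or ventilated mouse 2, and 5 without baseline mouse 2.

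Of the intermediate chains at the base of the outer arm, Dnaic1 fell by 0.51 ± 0.16 (adjusted p = 0.0409), a call that was lost in 7 of the 12 fits that left out 1 array: those without any one of the Zmpste24-/- ventilated mice, Zmpste24-/- baseline mouse 1 or 3, wild type ventilated mouse 3 or wild type baseline mouse 1. Dnaic2, at -0.27 ± 0.13, did not pass. Of the 6 assembly factors, 2 fell and both passed in every fit that left out 1 array. Dnaaf1 stood at 6.90, 6.78 and 6.60 in ventilated lungs and 7.87, 7.54 and 7.67 at baseline. The groups were separate, and Dnaaf1 fell by 0.94 ± 0.14 (adjusted p = 0.000538). Dnaaf4 stood at 5.48, 5.53 and 5.82 in ventilated lungs and 6.47, 6.13 and 6.21 at baseline, also without overlap, and fell by 0.66 ± 0.11 (adjusted p = 0.0011). Dnaaf3, Dnaaf5, Dnaaf6 and Dnaaf6b had fold changes between -0.12 and 0.21 and did not pass.

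The parts that control the beat were also represented. In the nexin-dynein regulatory complex, Drc1 fell by 0.48 ± 0.13 (adjusted p = 0.0207) and Drc3 by 0.44 ± 0.13 (adjusted p = 0.0315), while Drc7, at -0.31 ± 0.15, did not pass. Drc1 stood at 6.93, 7.13 and 7.15 in ventilated lungs and 7.77, 7.27 and 7.61 at baseline. All ventilated arrays lay below all baseline arrays in the 3 genes of the complex, but the count of 2 dropped to 0 without baseline mouse 1, baseline mouse 3 or ventilated mouse 1, and to 1 without ventilated mouse 2 or 3. Of 7 radial spoke genes, Rsph4a of the spoke head and Rsph14 fell. Rsph4a stood at 8.53, 8.52 and 8.56 in ventilated lungs and 9.43, 9.09 and 9.25 at baseline, a wide gap beside the spread of the ventilated arrays, and fell by 0.72 ± 0.13 (adjusted p = 0.00166). Rsph14 fell by 0.39 ± 0.12 (adjusted p = 0.0372), and this call was lost without baseline mouse 1, baseline mouse 3, ventilated mouse 2 or ventilated mouse 3. The other spoke head genes Rsph1 and Rsph9 had fold changes of -0.34 and -0.27, and Rsph3a, Rsph3b and Rsph6a lay between -0.07 and 0.09. None of these 5 passed.

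In the central apparatus, Hydin and Spag17, large proteins attached to the central pair, both fell. Hydin stood at 7.64, 7.64 and 7.90 in ventilated lungs and 8.88, 8.14 and 8.39 at baseline. The groups were separate, and Hydin fell by 0.74 ± 0.16 (adjusted p = 0.00566). Spag17 stood at 7.10, 7.12 and 7.15 in ventilated lungs and 7.87, 7.39 and 7.56 at baseline, and fell by 0.48 ± 0.11 (adjusted p = 0.00932). Hydin and Spag17 each had a second probe with a lower mean (4.64 and 3.86) and a smaller fold change (-0.08 and -0.19) that did not pass. Spag6 stood at 4.99, 4.65 and 4.89 in ventilated lungs and 4.54, 5.0 and 4.91 at baseline, with overlapping groups, and had a log2 fold change of 0.02 ± 0.12. Its signal was above the array median on none of the 12 arrays, and which locus its probes read in lung was not checked here. The annotation separates Spag6 from the closely related Spag6l, which is no member by the rule and fell by 0.44 ± 0.12 (adjusted p = 0.0243).

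Of the 5 tektins, filament proteins of the doublets, Tekt4 and Tekt1 fell. Tekt4 stood at 6.26, 6.36 and 6.21 in ventilated lungs and 7.46, 6.93 and 6.90 at baseline, with no overlap, and fell by 0.82 ± 0.15 (adjusted p = 0.00216). Tekt1 fell by 0.38 ± 0.11 (adjusted p = 0.026), but not without baseline mouse 1, baseline mouse 3, ventilated mouse 1 or ventilated mouse 3. Without wild type baseline mouse 3, 3 tektins fell. Tekt2, Tekt3 and Tekt5 had fold changes between -0.24 and -0.11 and did not pass.

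**Figure D3:**
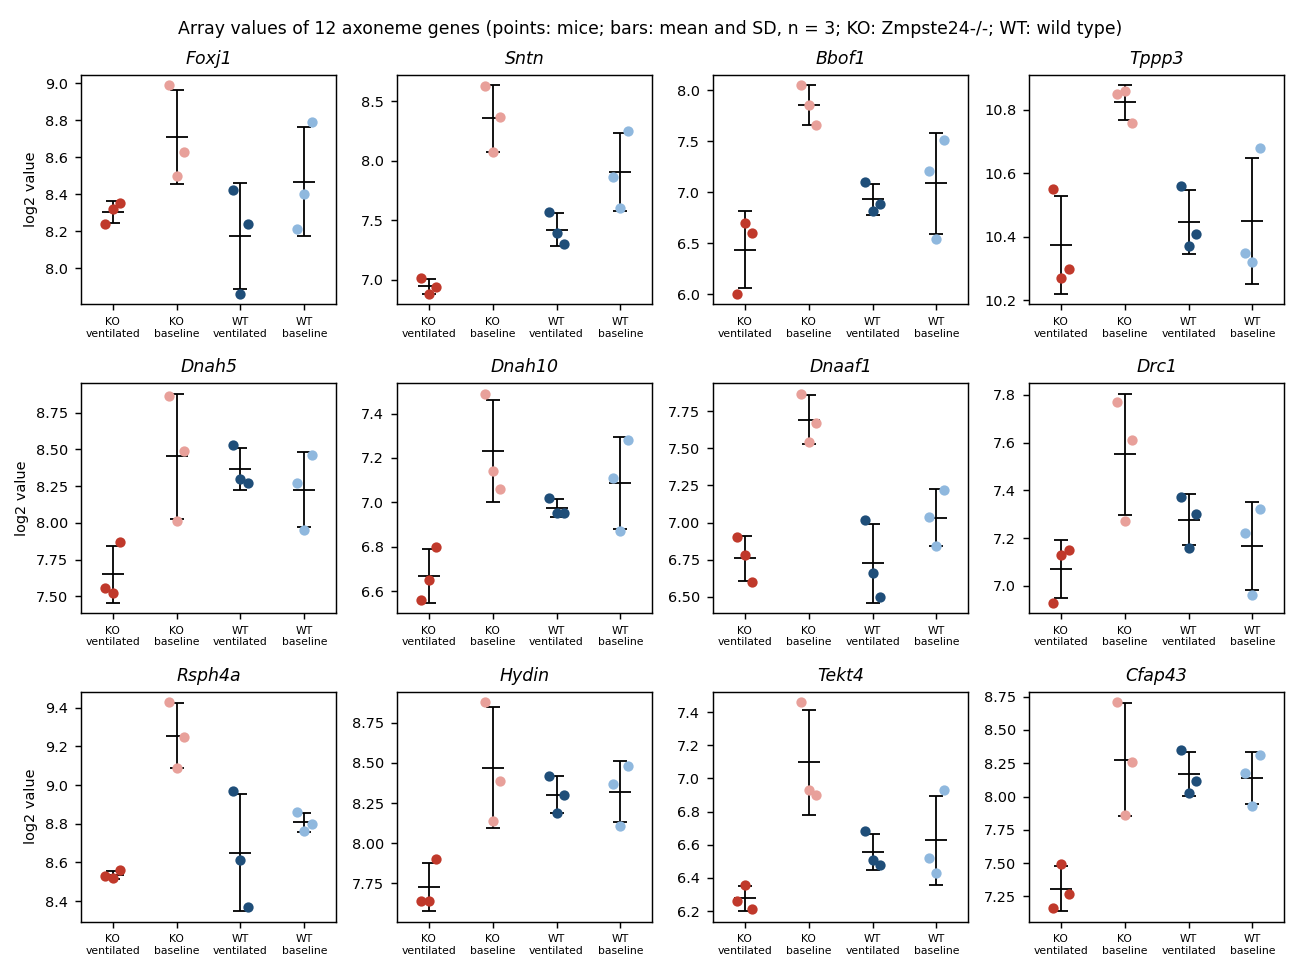
Points are the log2 values of single mice for 12 members, with mean and SD per group of 3; groups run from Zmpste24-/- ventilated to wild type baseline. In these 12 genes, chosen for display, the Zmpste24-/- ventilated arrays lie below the Zmpste24-/- baseline arrays with no overlap. The same held for 45 of all 73 members and for 16.8% of all genes.

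The 32 Cfap genes are the largest set, and 12 of them fell. Cfap43, known from sperm tails and brain cilia, stood at 7.16, 7.49 and 7.27 in ventilated lungs and 8.71, 7.86 and 8.26 at baseline. All ventilated arrays were below the baseline arrays, and Cfap43 fell by 0.97 ± 0.18 (adjusted p = 0.00198). Cfap61, a protein of the base of the radial spokes in Chlamydomonas, stood at 6.74, 6.87 and 6.85 in ventilated lungs and 7.69, 7.20 and 7.34 at baseline, also without overlap, and fell by 0.59 ± 0.12 (adjusted p = 0.00414). Cfap299 stood at 6.29, 6.48 and 6.66 in ventilated lungs and 7.22, 6.84 and 6.97 at baseline, and fell by 0.53 ± 0.12 (adjusted p = 0.00994). These 3 genes were the Cfap genes that passed in every fit that left out 1 array. The other 9 were Cfap100 (-0.70), Cfap65 (-0.59), Cfap44 (-0.55), Cfap57 (-0.55), Cfap74 (-0.49), Cfap70 (-0.48), Cfap99 (-0.45), Cfap97d2 (-0.43) and Cfap161 (-0.33). The count of 12 dropped to 3 without baseline mouse 1, 7 without baseline mouse 3, 4 without ventilated mouse 1 and 6 without ventilated mouse 2.

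The 20 Cfap genes that did not pass had fold changes between -0.52 and 0.06. They were Cfap46 (-0.52), of the central apparatus in Chlamydomonas, Cfap126 (-0.40), Cfap73 (-0.38), Cfap52 (-0.31) and Cfap47 (-0.31), followed by Cfap77, Cfap221, Cfap97, Cfap20dc, Cfap69, Cfap58, Cfap20 and Cfap206 between -0.26 and -0.20. Cfap300, Cfap36, Cfap45, Cfap298 and Cfap410 lay between -0.19 and -0.11, and Cfap53 and Cfap97d1 were at 0.04 and 0.06. Cfap20, Cfap45, Cfap52, Cfap53 and Cfap161 line the inside of the doublets in bovine airway cilia, and Cfap161 was the one of these that passed. Cfap298 and Cfap300 serve in dynein arm assembly.

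Ventilation in wild type lungs was tested next. The axoneme genes were centred near 0: 0 of 73 members fell and 1 rose, against 3.53% and 3.67% of all genes (7.20% either way). At an unadjusted p under 0.05, 3 of 73 members were lower and 3 higher, against 2367 and 2163 of all 22180 genes, and the trended, robust prior gave the same 0 and 1. The median log2 fold change was 0.02, against -0.01 over all genes, and 34 of 73 members were negative. The one that passed was Cfap53, a protein inside the doublets that is also needed in the cilia of the left-right organizer. Cfap53 stood at 7.19, 6.75 and 6.92 in ventilated wild type lungs and 6.28, 6.05 and 6.46 in wild type baseline lungs, with no overlap, and rose by 0.69 ± 0.15 (adjusted p = 0.015). This call was lost without wild type baseline mouse 2 or wild type ventilated mouse 1.

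The members next in order of adjusted p in wild type lungs did not pass. Sntn stood at 7.57, 7.39 and 7.30 in ventilated lungs and 7.86, 7.60 and 8.25 at baseline, separate groups with a log2 fold change of -0.49 ± 0.16 (adjusted p = 0.0841). It passed without wild type baseline mouse 2. Dnah8 stood at 5.22, 5.11 and 5.25 in ventilated lungs and 5.45, 5.52 and 5.38 at baseline, also separate, at -0.26 ± 0.09 (adjusted p = 0.0955). Cfap206 and Cfap69 had fold changes of 0.31 and 0.33, Cfap299 0.27, Rsph3b -0.32 and Dnaaf1 -0.31. Rsph3b passed without wild type baseline mouse 1, the only fit of this comparison besides that without mouse 2 in which a member fell. Bbof1 (-0.16), Tppp3 (-0.01), Foxj1 (-0.29), Hydin (-0.01), Spag17 (0.01) and Spag6 (-0.19) had adjusted p-values between 0.363 and 0.987.

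**Figure D4:**
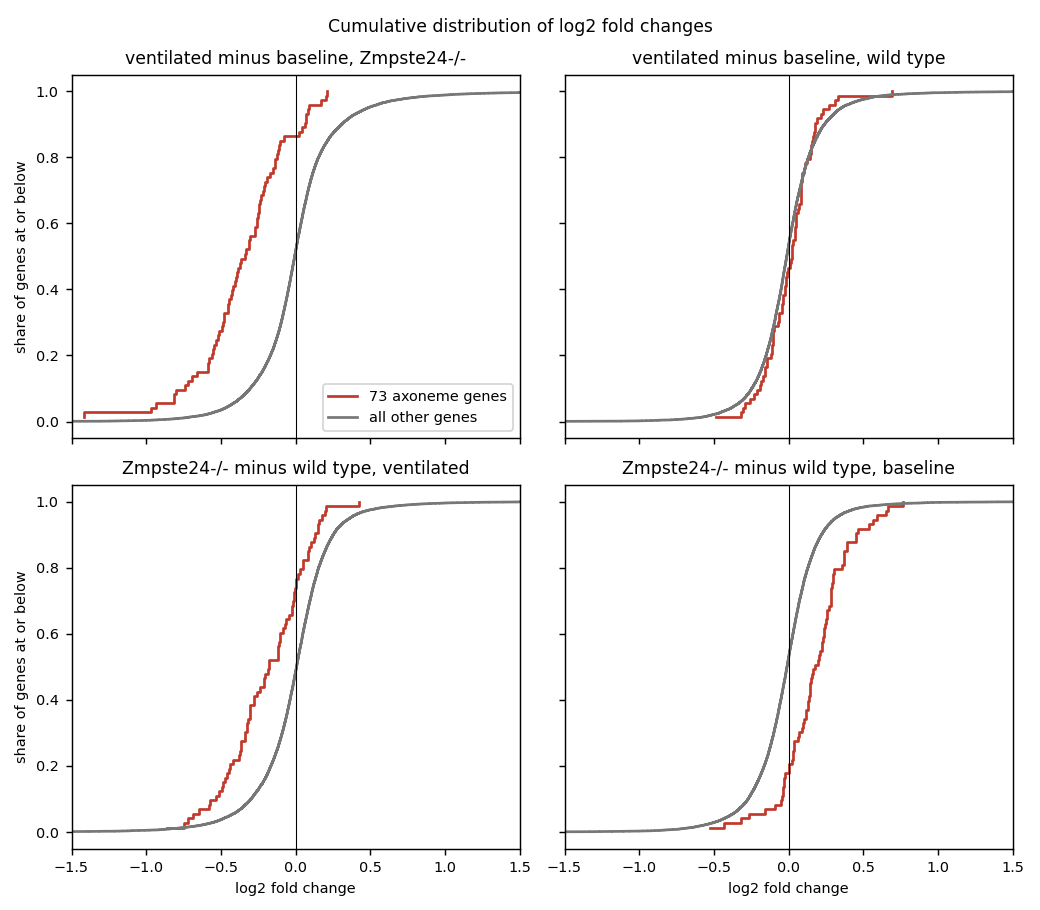
Each panel plots the share of genes (vertical axis) with a log2 fold change at or below the value on the horizontal axis, for the 73 members (red) and all other genes (grey). The red curve lies left of the grey one for ventilation in Zmpste24-/- lungs (median -0.34 against -0.01) and for genotype under ventilation (median -0.18), right of it for genotype at baseline (median 0.18), and near it for ventilation in wild type lungs (median 0.02).

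The difference between both responses was tested as an interaction (ventilation in Zmpste24-/- lungs minus ventilation in wild type lungs). No member passed (0 of 73 in either direction, beside 0.0496% of all genes with a negative and 0.266% with a positive interaction, or 0.316% in all), with limma's standard prior or the trended, robust one. At an unadjusted p under 0.05, 38 of 73 members had a negative interaction and 0 a positive one, against 1153 negative and 1445 positive among all 22180 genes. The median interaction over the members was -0.41, against 0.01 over all genes, and 63 of 73 were negative. Club and secretory genes had a median interaction of -0.77, with 15 of 15 negative, 7 at an unadjusted p under 0.05 and 0 that passed. The smallest adjusted p was that of Cfap299, at -0.80 ± 0.18 (adjusted p = 0.0767). Sntn (-0.93 ± 0.22, adjusted p = 0.101), Bbof1 (-1.26 ± 0.31, adjusted p = 0.11) and Cfap43 (-0.996 ± 0.25, adjusted p = 0.114) came next. Cfap61, Dnah5, Tekt4 and Drc3 followed, with interactions of -0.63, -0.94, -0.74 and -0.61 and adjusted p-values of 0.142, 0.158, 0.166 and 0.178. A larger decrease in Zmpste24-/- than in wild type lungs was therefore not shown for any single member.

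Genotype was compared under ventilation on the same arrays, so its values are not independent of those above. Of the 73 members, 9 (12.3%) were lower in Zmpste24-/- ventilated lungs than in ventilated wild type lungs and 0 were higher, against 6.08% and 4.72% of all genes (10.8% either way). At an unadjusted p under 0.05, 26 of 73 were lower and 2 higher, against 2953 and 2542 of all 22180 genes. The median was -0.18, against 0.01 over all genes. Genes of higher signal passed more often: above the 25th percentile of mean level, 10 of 68 members (14.7%) were lower, against 8.55% of all genes. Above the median of mean level it was 10 of 58 members (17.2%), against about 12% of all genes. After subtraction of each array's median, which moved all genes alike, 8 members were lower and 0 higher, against 4.39% and 6.89% of all genes. The count of members was 4 (5.48%) without Zmpste24-/- ventilated mouse 1, beside 4.12% of all genes. It was 6 (8.22%) without any one of the wild type ventilated mice, beside 6.84%, 3.31% and 3.64% of all genes without mouse 1, 2 and 3. The members' share was thus near that of all genes without Zmpste24-/- ventilated mouse 1 or wild type ventilated mouse 1. Smooth muscle markers were lower in the same comparison: 4 of 10 passed (Myh11, Synpo2, Smtn and Acta2, between -1.37 and -0.56), all 10 were negative, and the median was -0.78. Of 14 cartilage genes, Chad was lower by -1.84 ± 0.34 (log2, adjusted p = 0.004) and Acan higher by 0.33 ± 0.10 (adjusted p = 0.0422). The cartilage list leaned the other way from Chad, with 11 of 14 genes positive and a median of 0.12. The part of tissue composition in the members' difference was not tested.

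Cfap20dc, Cfap74, Dnah8 and Cfap43 passed in every fit of this comparison that left out 1 array. Cfap20dc stood at 4.19, 4.20 and 4.18 in Zmpste24-/- ventilated lungs and 4.64, 4.89 and 4.77 in ventilated wild type lungs, close together within each group, and was lower by -0.58 ± 0.10 (log2, adjusted p = 0.00235). Cfap74, of the central apparatus in Chlamydomonas, stood at 6.33, 6.80 and 6.75 in Zmpste24-/- and 7.41, 7.29 and 7.25 in ventilated wild type lungs, at -0.69 ± 0.13 (adjusted p = 0.00492). Dnah8 stood at 4.66, 4.73 and 4.86 in Zmpste24-/- and 5.22, 5.11 and 5.25 in ventilated wild type lungs, at -0.44 ± 0.09 (adjusted p = 0.00522). These groups did not overlap in any of the 3 genes. Cfap43 stood at 7.16, 7.49 and 7.27 in Zmpste24-/- and 8.35, 8.03 and 8.12 in ventilated wild type lungs, again apart, at -0.86 ± 0.18 (adjusted p = 0.00724). The other 5 were Cfap61 (-0.49), Cfap65 (-0.64), Dnah5 (-0.72), Cfap69 (-0.52) and Hydin (-0.58), with adjusted p-values between 0.019 and 0.0329. Each of these 5 lost its call in 2 to 5 of the 12 fits, that without Zmpste24-/- ventilated mouse 1 among them. Sntn, Bbof1, Tppp3 and Foxj1, at -0.47, -0.49, -0.07 and 0.13, did not pass.

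At baseline the members leaned the other way. This comparison shares the Zmpste24-/- baseline arrays with the test of ventilation in Zmpste24-/- lungs, so the results of both are not independent. Of the 73, 4 were higher and 2 lower in Zmpste24-/- than in wild type baseline lungs, against 2.2% and 4.11% of all genes (6.31% either way). Before adjustment, 21 of 73 were higher and 3 lower at a p under 0.05, against 1904 and 2731 of all 22180 genes. The median was 0.18, against -0.01 over all genes, and 60 of 73 members were positive. Club and secretory genes were higher as well: 3 of 15 passed (Aldh1a7, Cldn10 and Gabrp, between 0.39 and 0.66), all 15 were positive, and the median was 0.66. Their count was 1 without wild type baseline mouse 2 or Zmpste24-/- baseline mouse 3, and the part of airway content in the members' difference was not tested. Cfap206 stood at 8.99, 8.64 and 8.78 in Zmpste24-/- and 8.26, 8.10 and 8.37 in wild type baseline lungs, and was higher by 0.56 ± 0.11 (adjusted p = 0.0105). Cfap299 stood at 7.22, 6.84 and 6.97 in Zmpste24-/- and 6.51, 6.18 and 6.57 in wild type baseline lungs, and was higher by 0.59 ± 0.12 (adjusted p = 0.014). Dnaaf1 stood at 7.87, 7.54 and 7.67 in Zmpste24-/- and 7.04, 6.84 and 7.22 in wild type baseline lungs, and was higher by 0.66 ± 0.14 (adjusted p = 0.0145). Cfap53 stood at 7.23, 6.80 and 6.72 in Zmpste24-/- and 6.28, 6.05 and 6.46 in wild type baseline lungs, and was higher by 0.65 ± 0.15 (adjusted p = 0.0226). None of these 4 genes overlapped between the groups. All Zmpste24-/- arrays lay above all wild type arrays in 13 members and below them in 3, which held for 9.67% and 14.3% of all genes.

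The count of higher members at baseline rested on few mice. It was 1 (1.37%) without Zmpste24-/- baseline mouse 1, the array with the highest member values, beside 1.44% of all genes, and 1 without wild type baseline mouse 2, beside 1.35%. It was 11 (15.1%) without wild type baseline mouse 3, beside 2.24%. Rsph4a and Bbof1, at 0.45 ± 0.13 and 0.77 ± 0.22, did not pass (adjusted p = 0.0536 and 0.0579). Cfap20dc and Dnah8 were lower in Zmpste24-/- lungs at baseline as well. Dnah8 stood at 4.84, 5.04 and 4.88 in Zmpste24-/- and 5.45, 5.52 and 5.38 in wild type baseline lungs, at -0.53 ± 0.09 (adjusted p = 0.00327). Cfap20dc stood at 4.59, 4.31 and 4.40 in Zmpste24-/- and 5.01, 4.75 and 4.84 in wild type baseline lungs, with no overlap, at -0.43 ± 0.10 (adjusted p = 0.0175). Dnah8 and Cfap20dc thus differed by genotype in both conditions. Both had low signal, Cfap20dc above the array median on none of the 12 arrays and Dnah8 on some. The 4 members higher at baseline were all among the 61 above the array median throughout, and the 2 lower ones among the other 12. The log2 fold changes of Dnah8 and Cfap20dc with ventilation did not pass in either genotype. Dnah8 kept its baseline call in every fit that left out 1 array, and Cfap20dc lost it in 3 of 12.

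Other cilia genes, listed apart from the members, were counted in the same way for ventilation in Zmpste24-/- lungs. In that comparison 7.52% of all genes fell and 8.89% rose, and 4.73% to 7.93% fell in the fits that left out 1 array. Of 15 genes of arm docking and assembly with other names, 7 fell and 0 rose (median -0.37). Ttc25 and Ccdc151, of the complex that docks the outer arm, fell by 0.99 ± 0.13 (adjusted p = 0.000139) and 0.80 ± 0.16 (adjusted p = 0.00351). Lrrc6, an assembly factor, fell by 0.72 ± 0.16, and Iqca by 0.69 ± 0.16. The count was 4 without baseline mouse 1, baseline mouse 3 or ventilated mouse 1. Of 33 further ciliated cell genes, 15 fell and 3 rose (median -0.35), among them Dnali1 of the inner arm (-0.84 ± 0.14, adjusted p = 0.00105) and Ldlrad1 (-0.80 ± 0.13, adjusted p = 0.001). The 3 that rose were Dynll1 (0.99 ± 0.15, adjusted p = 0.00056), a light chain shared by many dynein and other complexes, Ezr (0.48 ± 0.09), which links membranes to actin, and Stoml3 (0.36), the last named after its value was seen. The count of 15 dropped to 4 without baseline mouse 1, 7 without baseline mouse 3, 6 without ventilated mouse 1 or 2 and 9 without ventilated mouse 3.

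Regulators of multiciliated cells and the transport machinery of cilia moved in part. Of 12 regulators, 3 (25%) fell, beside 7.52% of all genes. Myb, which drives precursors into the multiciliated fate, fell by 1.24 ± 0.16 (adjusted p = 0.000196), Trp73 by 0.53 ± 0.11 (adjusted p = 0.00394) and Rfx3, an RFX factor, by 0.36 ± 0.09 (adjusted p = 0.0138). Rfx3 lost its call without baseline mouse 1 or ventilated mouse 1. The median of the list was -0.09, and its other 9 genes did not pass. Of 27 intraflagellar transport genes, which serve primary and motile cilia alike, 9 (33.3%) fell and 1 (3.7%) rose (median -0.26). Wdr19 fell by 0.88 ± 0.11 (adjusted p = 0.000123), Ift172 by 0.51 ± 0.07 (adjusted p = 0.000334), Ttc30b by 0.78 ± 0.14 (adjusted p = 0.00181) and Ift46 by 0.44 ± 0.10, while Ift20, named after its value was seen, rose by 0.27. No transport gene rose without wild type ventilated mouse 3 or without any one of the 6 Zmpste24-/- mice, or with the replicate number as a block. Of 10 BBSome genes, Bbs2 and Bbs9 fell (20%, median -0.21), with 0 calls without baseline mouse 1 and 1 without ventilated mouse 2 or 3.

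Markers of other cell types were set beside these counts, since the lung sample could hold different shares of airway. Of 15 club and secretory genes, 4 (26.7%) fell and 0 rose after ventilation in Zmpste24-/- lungs (Gabrp, Cldn10, Hp and Lypd2), beside 7.52% and 8.89% of all genes. All 15 had a negative fold change, and the median was -0.53. The count was 2 without baseline mouse 1, ventilated mouse 2 or ventilated mouse 3. Their summed level on the linear scale was 26172 to 29513 in Zmpste24-/- ventilated lungs, 27649 to 45130 in Zmpste24-/- baseline lungs, 28313 to 43131 in ventilated wild type lungs and 24177 to 34713 in wild type baseline lungs. It was highest in Zmpste24-/- baseline mouse 1, as was that of the members, and lowest in wild type baseline mouse 2, which had the lowest value of the 12 arrays in 14 members. The summed level of the 73 members was 10079 to 10592, 12436 to 15949, 11529 to 12907 and 10623 to 13158 in the same 4 groups. Its lowest value was that of Zmpste24-/- ventilated mouse 1, which had the lowest value in 25 members. The club level of that mouse was 26172, and only wild type baseline mouse 2 (24177) had a lower one. Such sums weigh the genes of highest signal most. Scgb1a1 and Cyp2f2 are among them in the club list and varied little between arrays. Other club genes varied far more from mouse to mouse. Bpifa1, named after its value was seen, stood at 8.01, 8.69 and 10.29 in Zmpste24-/- ventilated lungs and 12.43, 5.09 and 11.26 at Zmpste24-/- baseline. In wild type lungs it stood at 12.18, 11.32 and 9.05 after ventilation and 8.42, 5.06 and 11.04 at baseline. Bpifb1, Reg3g and Muc5b also varied widely within groups. The part of airway content in the members' decrease was not tested.

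**Figure D5:**
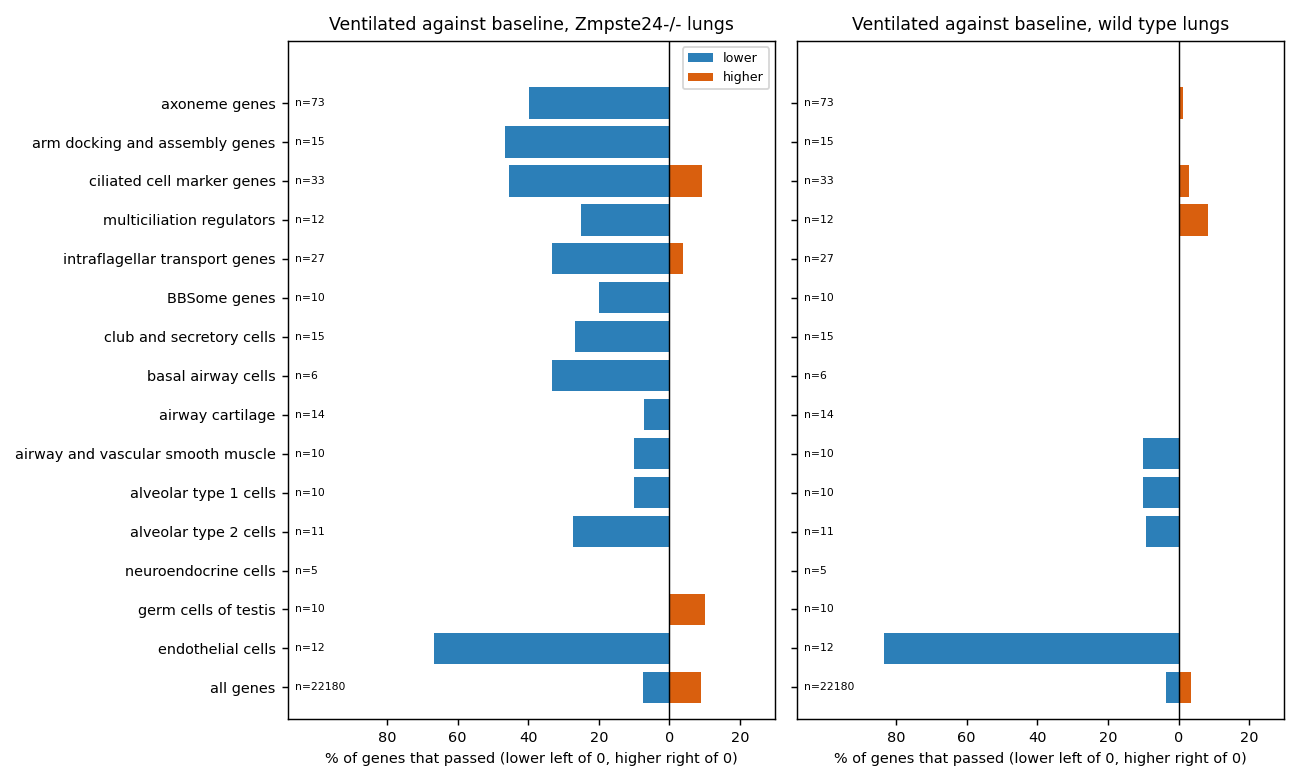
Bars give the percent of the genes of each list that were lower (left of 0) or higher (right of 0) after ventilation at an adjusted p under 0.05, in Zmpste24-/- lungs on the left and wild type lungs on the right. The axoneme genes stand at 39.7% lower in Zmpste24-/- lungs and at 0% lower in wild type lungs, while the endothelial list is lower in both genotypes.

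The remaining lists were counted in the same comparison, in which 7.52% of all genes fell and 8.89% rose. Of 14 cartilage genes only Chad fell (-1.64 ± 0.34, adjusted p = 0.00471), of 10 smooth muscle genes only Hhip (-0.70 ± 0.13), of 10 type 1 cell genes only Rtkn2 (-0.76 ± 0.12), and of 11 type 2 cell genes Etv5 (-0.83 ± 0.09), Slc34a2 and Nkx2-1. The shares that fell in the cartilage, smooth muscle and type 1 cell lists (7.14%, 10% and 10%) were near that of all genes. Of 6 basal cell genes Dapl1 and Trp63 fell, of 5 neuroendocrine genes none passed, and of 10 germ cell genes, listed because several members are known from sperm tails, Odf1 rose (0.36 ± 0.09) and none fell. The germ cell genes other than Odf1 lay below the array median on every array. So did most cartilage genes, most basal genes and some neuroendocrine genes, which limits what the counts of these lists can show. Dapl1 and Trp63 were among these basal genes. The basal cell count was 0 without Zmpste24-/- baseline mouse 1 or ventilated mouse 1 or 3, and 1 without Zmpste24-/- baseline mouse 2 or 3, ventilated mouse 2 or wild type baseline mouse 2. The type 2 cell count was 1 without Zmpste24-/- ventilated mouse 2 or 3, Odf1 lost its call without ventilated mouse 2, and the endothelial count was 5 without Zmpste24-/- baseline mouse 3. The smooth muscle and type 1 cell counts were 2 without wild type ventilated mouse 1 and wild type ventilated mouse 3. Endothelial genes fell after ventilation in both genotypes, 8 of 12 in Zmpste24-/- lungs (median -0.43) and 10 of 12 in wild type lungs (median -0.60), where the axoneme genes had a median of 0.02. Over all genes, 3.53% fell and 3.67% rose in wild type lungs. In wild type lungs none of the arm docking, intraflagellar transport, BBSome or club genes passed, and Deup1, of the organelle that multiplies centrioles, rose by 0.64 ± 0.15 (adjusted p = 0.0225), though not without any one of the wild type baseline mice.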

How the data were processed

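RNA from whole lung (Trizol, 100 ng labelled, per the labels' protocols) was measured on 12 one-colour Affymetrix arrays. The authors deposited log2 values per probe, already normalized. Their processing used RMA and limma, per the submitters' processing notes, versions not given. That the unit is log2 rests on the range of the values. No scan date or slide was given, so batches were not tested. Of 41345 probes, 23521 carry 1 gene symbol, 1814 several and 16010 none in the platform annotation; 1-symbol probes were used, the highest-mean probe for each of 22180 genes. Member symbols were checked by gene identifier against a RefSeq table (GRCm38.p6). Probe signals of different genes are not comparable as amounts of RNA.

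Values were not normalized again. Group means were estimated over the 12 arrays together in limma 3.58.1 (lmFit, eBayes; R 4.3.3), and 5 contrasts were taken, with Benjamini-Hochberg adjustment over all genes and a threshold of 0.05. The fit was tested on simulated data. Precision is limited by 3 arrays per group. Alternatives were other filters, array-median subtraction, the mean of a gene's probes, only the compared groups, another variance prior, a replicate block and leaving out each array. Named were the 7 genes singled out in the rule, the 8 members with the smallest adjusted p per contrast, all members by role, and up to 4 genes per list. The members and lists were chosen with earlier results of these data known. A planned split by protein length was not run. Plots were made in Python 3.11.15 (matplotlib 3.10.9).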

Additional observations from a re-analysis of the deposited data

How the results depend on the processing

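No called value reversed under the alternatives run, while the members' median in wild type lungs, near 0, took either sign when arrays were left out. For ventilation in Zmpste24-/- lungs, 25 members fell after subtraction of each array's median, beside 6.83% of all genes. Between 28 and 31 fell under the other alternatives that kept all arrays, beside 7.22% to 15.5% of all genes, and 0 rose. With only genes above the median of mean level, 7 of 58 members (12.1%) were higher and 0 lower by genotype at baseline. The shares of all genes were 5% and 8.91%. With that filter 1 of 58 members, Cfap299, passed the interaction with a negative value, beside 0.343% of all genes. With only the compared groups in the fit, 16 of 73 members (21.9%) were lower by genotype under ventilation, beside 5.74% of all genes. At baseline 1 (1.37%) was lower and 5 (6.85%) were higher, beside 2.88% and 1.42% of all genes. With the replicate number as a block, 30 members fell after ventilation in Zmpste24-/- lungs and 1 rose in wild type lungs, beside 7.22% and 3.33% of all genes. By genotype, 12 were lower under ventilation, beside 5.93% of all genes. At baseline 2 were lower and 5 higher, beside 3.96% and 2.16% of all genes, and 0 passed the interaction. The numbers do not pair the mice: over 18 pairs of same-numbered arrays the correlation of deviations from group means ran from -0.152 to 0.153, 2 pairs exceeded 0.1, and 5 of 12 arrays correlated best with their own number.

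Leaving out 1 array at a time gave 14 to 32 lower members for ventilation in Zmpste24-/- lungs, 0 to 1 lower and 0 to 1 higher in wild type lungs, 4 to 12 lower and 0 to 1 higher for genotype under ventilation, and 1 to 2 lower and 1 to 11 higher for genotype at baseline. The interaction stayed at 0 lower and 0 higher. Over all genes, the same fits gave 4.73% to 7.93% lower for ventilation in Zmpste24-/- lungs. In wild type lungs they gave 1.84% to 3.48% lower and 1.76% to 3.73% higher. For genotype they gave 3.31% to 6.84% lower and 2.83% to 4.93% higher under ventilation, and 1.75% to 4.3% lower and 1.16% to 2.39% higher at baseline. The members' median ran from -0.43 to -0.24 and from -0.06 to 0.07 for ventilation, from -0.20 to -0.16 and from 0.08 to 0.30 for genotype under ventilation and at baseline, and from -0.51 to -0.30 for the interaction. Groups of 3 arrays, bulk tissue and probes without a stated detection limit bound what these counts can show.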
